A study of Mus musculus with 12 samples.

Results

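High-score Tex cells are the sorted exhausted CD8+ T cells of mouse spleen whose deposited S phase score or G2/M score was above 0.2. Exhausted T cells (Tex) are CD8+ T cells that have met antigen for long and carry inhibitory receptors. By this rule 5001 of 20520 Tex cells were high-score, 1915 of 9897 in the anti-CD137 library and 3086 of 10623 in the Ig control library. The other 15519 Tex cells are called the remaining Tex cells. The cells were chosen by these scores, so scores, phases, clusters and depth are given as descriptions, since all come from the same gene expression. T cell receptor (TCR) chains were not used in the choice.

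Wild-type C57BL/6 mice received either anti-CD137 (clone 3H3, 10 µg, 5 mice), an antibody to the costimulatory receptor 4-1BB of activated T cells, or a control immunoglobulin (Ig control, clone HRPN, 100 µg, 10 mice). Injections were given on 2 days of each week, and spleens were taken after 14 days. The sort used CD44, which marks antigen-experienced cells, with PD1, Slamf6 and Tim3: Tex cells were CD44hi, PD1+, Slamf6- and Tim3+, precursor exhausted cells (Tpex) CD44hi, PD1+, Slamf6+ and Tim3-, and effector cells (Teff) CD44hi and PD1-. Gene expression (read from 5′ ends) and TCR chains were each sequenced as 1 library per gate and treatment, with cells not tied to single mice, so treatments could not be compared over replicates. Doses and mouse numbers also differed between the treatments and cannot be told apart from the antibody.

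In the cell cycle, DNA is copied in S phase and shared out in G2 and mitosis, and each step needs its own set of genes. A cell cycle score is the mean level of such a gene set in a cell, less that of control genes of similar level, so it is relative and has no unit. Tpex cells are known as the self-renewing source of Tex cells in chronic infection and tumours. A clonotype, the cells with the same rearranged receptor, therefore links cells of both gates that descend from 1 T cell.

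No gene values were used here, so the label of cycling cells could not be set against Mki67, Top2a or other genes of dividing cells, and the Tex gate could not be set against Havcr2 (the gene of Tim3) or Slamf6. The cells are therefore called by their scores. The cell table held 100540 cells in 6 gene expression libraries, with 31252414 to 126261864 UMIs (unique molecular identifiers, each standing for 1 captured RNA molecule) per library. Median UMIs per cell were 3473 in anti-CD137 Tex and 5619 in Ig control Tex, and the shallowest cells had 1840 and 653. The Tex libraries shared 148 cell barcodes with each other and 187 to 422 with each of the other libraries. TRB chains were recovered on both sides for 48 to 287 of these barcodes per pair of libraries, and the same TRB was found for 0 of them, apart from 2 of 162 between Ig control Tex and Ig control Tpex. Among Tex cells with a barcode found in no other library, 19.5% of 8663 anti-CD137 and 29.1% of 9295 Ig control cells were high-score. Shares have exact Clopper-Pearson 95% intervals, from which those of differences were made. They cover counting error only, and clonally related cells were not drawn independently.

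High-score cells made up 19.3% of anti-CD137 Tex cells (18.6 to 20.1) and 29.1% of Ig control Tex cells (28.2 to 29.9). The share was thus 9.70 percentage points lower with anti-CD137 (difference -9.70, -10.9 to -8.53). This order turned round when cells of like UMI count were set side by side. Over 8 matched bins of UMIs per cell the mean share was 26.6% in anti-CD137 and 23.1% in Ig control Tex cells, a difference of 3.51 points. Bins stand in for thinning each cell to a common depth, which needs counts per gene, but do not amount to it. As the libraries' median UMIs differed, cells of equal UMIs held different ranks in their libraries. High-score cells were the deeper ones in each library. Among cells above their library's median UMIs the difference was -19.8 points (-21.6 to -17.9). The order at a common thinned depth was not tested. The threshold was the same in both libraries, but their scores were not centred alike. Median S scores of all Tex cells were -0.103 in anti-CD137 and -0.153 in Ig control, and median G2/M scores -0.141 and -0.228. The part of this in the order was not tested.

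Deep cells were the most often high-score in both libraries, but the share did not climb evenly with depth. The Ig control share was lowest from 3000 to 4000 UMIs, and the anti-CD137 share lay between 11% and 12.1% in the 4 bins under 4000 UMIs. Between 2000 and 2500 UMIs, 11% of anti-CD137 and 10.6% of Ig control Tex cells were high-score (difference 0.368, -3.58 to 3.77). From 3000 to 4000 UMIs the shares were 12% and 7.71% (difference 4.24, 2.20 to 6.20). From 5000 to 7000 UMIs they were 25.6% and 19.2% (difference 6.42, 3.58 to 9.32). Among cells with over 10000 UMIs, 74.9% and 73.1% were high-score, a difference within counting error (1.86, -3.30 to 6.71). The anti-CD137 share was thus higher beyond counting error from 3000 to 7000 UMIs. The lowest shared bin, 1500 to 2000 UMIs, ran the other way, with 11% in anti-CD137 and 18.6% in Ig control cells (difference -7.58, -13.3 to -2.36). Depth was not alike within this bin, with median UMIs of 1919 in anti-CD137 cells, which began at 1840, and 1754 in Ig control cells. Nor was the makeup of its high-score cells alike. The authors' clusters 3 and 4 held 20.4% and 30.6% of 49 Ig control ones, and 9.72% and 86.1% of 72 anti-CD137 ones. Their median mitochondrial UMIs were 3.07% in Ig control and 2.11% in anti-CD137. Below 1500 UMIs there were no anti-CD137 Tex cells, and Ig control Tex cells were high-score in 15.2% of 237 cells (1000 to 1500 UMIs) and 15.9% of 113 cells (under 1000). Of the 36 high-score cells from 1000 to 1500 UMIs, 2.78% lay in cluster 3 and 33.3% in cluster 4. Their median mitochondrial UMIs were 4.72%, against 1.70% in the remaining cells of that bin.

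**Figure D1:**
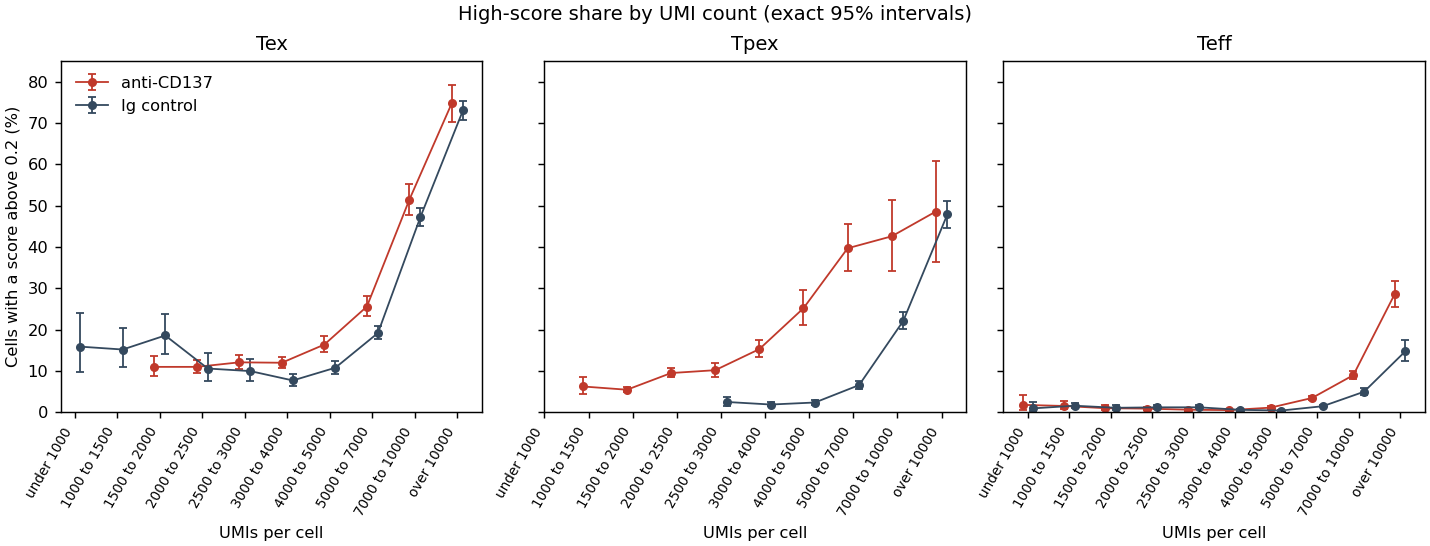
Share of cells with an S or G2/M score above 0.2 (y axis, percent) by UMIs per cell (x axis, bins) in Tex, Tpex and Teff, with anti-CD137 in red and Ig control in dark blue. Bars are exact 95% intervals. In Tex the share was 74.9% in anti-CD137 and 73.1% in Ig control cells with over 10000 UMIs, and lowest in Ig control cells of 3000 to 4000 UMIs (7.71%), and the anti-CD137 points lie above the Ig control points from 2000 UMIs on.

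Shallow high-score cells had an unlike RNA makeup. Between 2000 and 2500 UMIs, the median share of UMIs from ribosomal protein genes was 8.61% in high-score and 17.3% in remaining anti-CD137 Tex cells. For Ig control cells it was 11.4% in high-score and 17.6% in remaining cells of that bin. Median mitochondrial UMIs, in the same bin, were 1.74% in high-score and 1.11% in remaining anti-CD137 cells, and 2.24% in high-score and 1.20% in remaining Ig control cells. Above 7000 UMIs the ribosomal medians of high-score cells, 18.5% (7000 to 10000) and 20% (over 10000) in anti-CD137 and 16.4% and 17.9% in Ig control, lay closer to those of the remaining cells, 19.8% and 21.1% in anti-CD137 and 18.9% and 19.7% in Ig control.

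Cells with under 10% ribosomal protein UMIs made up 56.3% of 711 high-score anti-CD137 Tex cells under 4000 UMIs, against 9.51% of 5404 remaining ones. Among Ig control cells they made up 30% of 290 high-score cells under 4000 UMIs and 5.18% of 2470 remaining ones. Without cells of under 10% ribosomal protein UMIs, an alternative chosen after the data were seen, high-score cells were 15.9% of 8862 anti-CD137 and 28.3% of 10317 Ig control Tex cells. The mean over matched bins was then 24.1% in anti-CD137 and 22.6% in Ig control cells, a difference of 1.53 points. With that filter, the anti-CD137 share stayed above the Ig control share beyond counting error from 4000 to 7000 UMIs (12.7% against 10.1%, then 24% against 18.7%). It lay below it from 1500 to 2000 UMIs (5.51% against 14.1%) and from 2500 to 3000 UMIs (5.87% against 9.30%, difference -3.43, -6.62 to -0.599). The part of low ribosomal RNA in the scores was not tested.

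Within the high-score cells, the deposited phases were split nearly evenly, as description of the scores that chose them. Phase S was given to 49.7% of anti-CD137 and 51.1% of Ig control high-score cells, and phase G2M to 50.3% and 48.9%. Only the S score passed 0.2 in 40.3% of anti-CD137 and 42.3% of Ig control high-score cells, only the G2/M score in 36.7% and 32.8%, and both in 23.0% and 25%. The deposited phase followed from the sign and order of the scores in 100540 of 100540 cells, so it adds nothing to them. Phase G1 was given to none of the high-score cells, and to 87.6% of remaining anti-CD137 and 87.2% of remaining Ig control cells.

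The higher of a cell's scores had a median of 0.436 in anti-CD137 and 0.480 in Ig control high-score cells, and reached 1.34 and 1.25. In the remaining cells the medians were -0.103 and -0.179. Few cells lay near the threshold, but it fell within a continuous run of scores and marked no gap between groups of cells. From 0.2 to 0.25 there were 210 anti-CD137 and 210 Ig control cells, and from 0.15 to 0.2 there were 184 and 239. These neighbours had like depth, with median UMIs of 4454 just over and 3985 just under the threshold in anti-CD137, and 7578 just over and 7836 just under in Ig control cells.

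**Figure D2:**
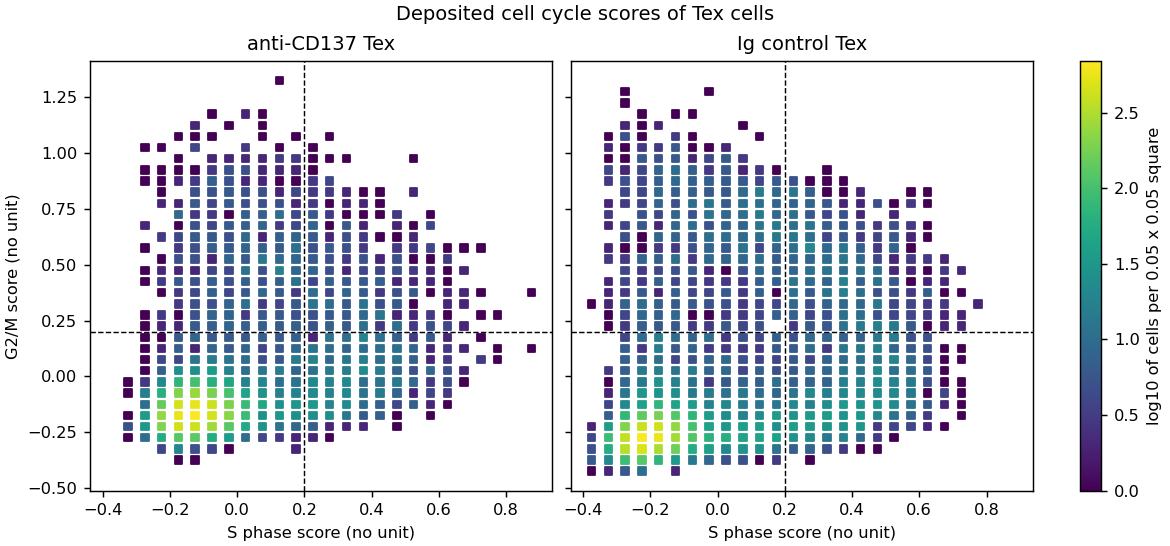
Deposited S phase score (x axis, no unit) and G2/M score (y axis, no unit) of Tex cells, anti-CD137 at left and Ig control at right, coloured by the log10 number of cells per square. Dashed lines mark 0.2 on each axis, and cells right of or above a line are high-score. Most cells form 1 dense patch at low scores, and the cells between 0.15 and 0.25 in their higher score are few.

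High-score Tex cells held more RNA molecules than the remaining cells. Median UMIs per cell were 5094 in high-score and 3292 in remaining anti-CD137 cells, a ratio of 1.55. Ig control medians were 8825 in high-score and 4881 in remaining cells, a ratio of 1.81. Cells of at least 7000 UMIs made up 33.5% of high-score and 5.40% of remaining anti-CD137 cells, and 68.8% of high-score and 20% of remaining Ig control cells. Genes with a UMI followed, with medians of 2150 and 1492 per cell in high-score and remaining anti-CD137 cells, and 2895 and 1914 in high-score and remaining Ig control cells.

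Nearly all high-score cells lay in clusters 3 and 4 of the authors' clusters, which are numbered 0 to 8. In the anti-CD137 library 51.3% of high-score cells lay in cluster 3 (49.0 to 53.5), against 11.5% of the remaining cells. Cluster 4 held 47.0% of high-score and 87.6% of remaining anti-CD137 cells, a difference of -40.6 points (-43.0 to -38.2). In the Ig control library 94.2% of high-score and 83.9% of remaining cells lay in cluster 3, and 2.40% of high-score and 11.5% of remaining cells in cluster 4 (difference -9.15, -10.0 to -8.21). High-score cells thus lay less often in cluster 4 than the remaining cells in both libraries.

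These gaps were narrower among cells of like depth. Over matched UMI bins, cluster 4 held 62.2% of high-score and 85% of remaining anti-CD137 cells (difference -22.8), and 5.67% of high-score and 9.20% of remaining Ig control cells (difference -3.54). Among anti-CD137 cells of 5000 to 7000 UMIs, 34.0% of high-score and 74.4% of remaining cells lay in cluster 4. In Ig control cells of that bin, 0.605% of high-score and 2.39% of remaining cells did. The gap held in each of the 8 anti-CD137 bins beyond counting error, with intervals that did not overlap. In Ig control cells the intervals stood apart in the bins of 1500 to 2000, 2500 to 3000 and 5000 to 7000 UMIs and overlapped in the others that held enough cells.

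**Figure D3:**
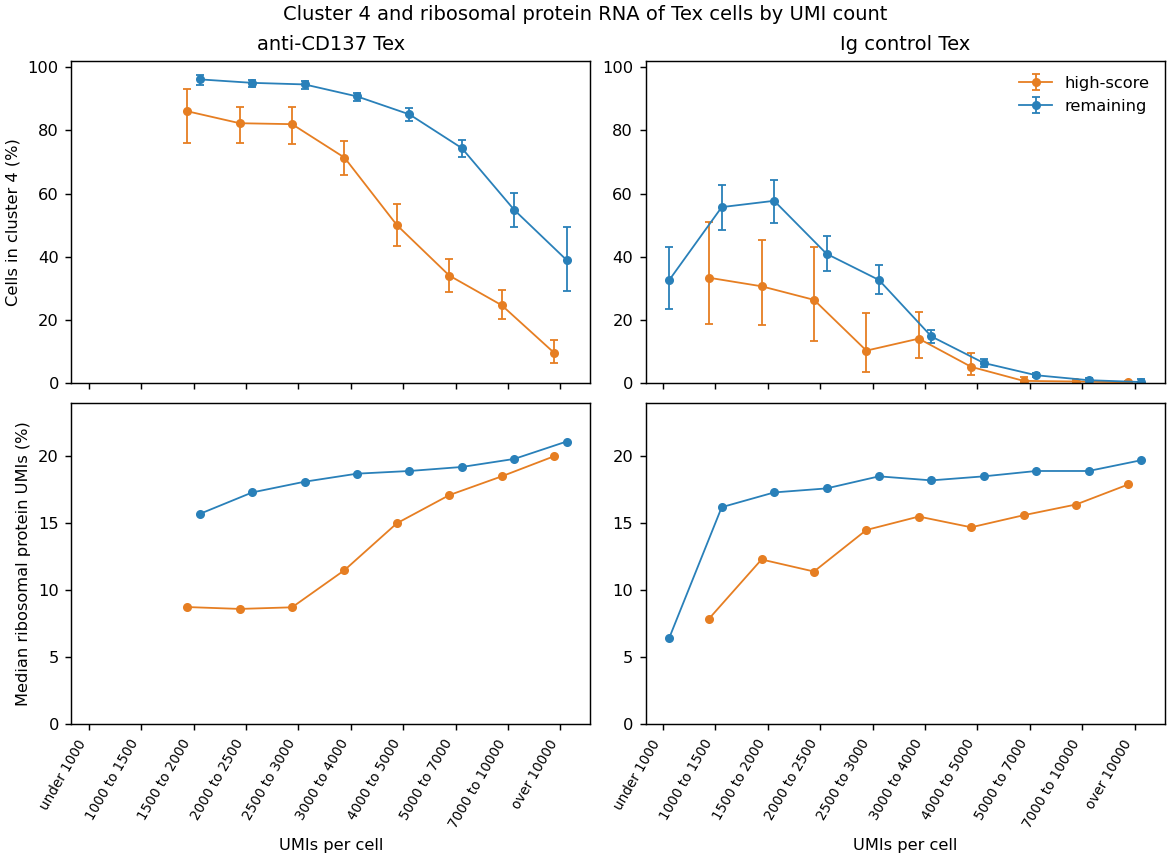
Top, share of Tex cells in cluster 4 (percent, exact 95% intervals) and bottom, median share of UMIs from ribosomal protein genes (percent), both by UMIs per cell, for high-score (orange) and remaining (blue) cells of anti-CD137 (left) and Ig control (right). Classes of under 20 cells in a bin are not drawn. High-score anti-CD137 cells lie below the remaining ones in each bin of both rows, with 8.61% against 17.3% ribosomal protein UMIs between 2000 and 2500 UMIs.

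Read the other way, 51.7% of 1898 anti-CD137 and 31.5% of 9229 Ig control cells of cluster 3 were high-score (difference 20.2, 17.8 to 22.7). Median depth in cluster 3 was alike, 6001 UMIs in anti-CD137 and 6092 in Ig control cells, and the mean over matched bins was 52.4% and 31.4%. In cluster 4, 11.4% of 7896 anti-CD137 and 7.84% of 944 Ig control cells were high-score (difference 3.57, 1.55 to 5.36), or 10.4% and 6.94% over matched bins. Inside either cluster the anti-CD137 share was thus the higher one, while it was the lower one over all Tex cells. Clusters and scores share the same gene expression, and anti-CD137 and Ig control Tex cells fell mostly into different clusters, so these values describe the libraries.

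Over all cells, high-score cells were more frequent in Tex than in the other gates. In Tpex 9.74% of anti-CD137 and 9.16% of Ig control cells passed the same rule, and in Teff 2.99% and 1.79%. Tex exceeded Tpex by 9.61 points in anti-CD137 (8.68 to 10.6) and by 19.9 points in Ig control cells (18.9 to 20.9). Over matched UMI bins the Ig control gap was kept in sign, with 25.3% in Tex and 11.7% in Tpex. In anti-CD137, whose Tpex cells had a median of 1950 UMIs, the binned shares were 15.5% in Tex and 14.7% in Tpex. Anti-CD137 Tex cells were less often high-score than anti-CD137 Tpex cells from 4000 to 5000 UMIs (16.4% against 25.2%) and from 5000 to 7000 UMIs (25.6%, 23.2 to 28.1, against 39.7%, 34.2 to 45.5). They were more often high-score among cells of over 10000 UMIs (74.9% against 48.6%) and from 1500 to 2000 UMIs (11%, 8.69 to 13.6, against 5.47%, 4.93 to 6.06). The latter bin held 6412 anti-CD137 Tpex cells, and its median UMIs were 1919 in Tex and 1688 in Tpex. Against Teff the binned shares were 20.8% in Tex and 2.97% in Teff for anti-CD137, and 21.3% and 2.38% for Ig control.

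Chain recovery, a measure the scores did not use, differed by under 5 points between high-score and remaining cells. Any chain was found in 59.7% of high-score and 59.7% of remaining anti-CD137 cells, and in 78.8% of high-score and 83.2% of remaining Ig control cells (difference -4.40, -6.10 to -2.72), which was -0.845 points over matched UMI bins. Both TCR chains were found in 49.2% of 1915 high-score and 47.3% of 7982 remaining anti-CD137 cells (difference 1.96, -0.555 to 4.48). Ig control cells had both chains in 72.5% of 3086 high-score and 73.5% of 7537 remaining cells (difference -1.07, -2.97 to 0.794). Over matched UMI bins, high-score cells had both chains less often in either library, by -3.72 points in anti-CD137 and -2.83 in Ig control. These paired cells, 943 high-score and 3774 remaining in anti-CD137 and 2236 high-score and 5542 remaining in Ig control, carry all clonotype results. Each clonotype is a pair of nucleotide CDR3s, the stretch of each chain that spans the V(D)J junction and touches the antigen. More than 1 TRB, as in a doublet of cells, was seen in 5.51% of high-score and 4.77% of remaining paired anti-CD137 cells (difference 0.745, -0.806 to 2.53). In paired Ig control cells it was seen in 3.49% of high-score and 3.03% of remaining cells (difference 0.457, -0.413 to 1.41). Over matched UMI bins these differences were -0.876 in anti-CD137 and -0.383 in Ig control.

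High-score cells came from small and large clonotypes alike, with a slight deficit of expanded ones in anti-CD137 that depended on the cells taken. A clonotype of at least 2 Tex cells was carried by 79.3% of high-score and 83.0% of remaining anti-CD137 cells (difference -3.67, -6.64 to -0.839), and this was -5.08 over matched UMI bins. In the Ig control library the shares were 91.1% in high-score and 92.2% in remaining cells (difference -1.02, -2.46 to 0.339), and 1.31 points apart over matched bins. The anti-CD137 difference was -3.06 without the 10 largest clonotypes (-6.59 to 0.322) and -2.72 above the median UMIs (-6.29 to 0.708). It was -2.78 with the S score alone (-6.39 to 0.571). With a score threshold of 0.1 it was -5.16 (-8.02 to -2.43), and -5.20 in cells of 5 or more TRB and 3 or more TRA UMIs (-8.68 to -1.91). The 10 largest clonotypes held 17.5% of high-score and 22.7% of remaining anti-CD137 cells (difference -5.18, -7.92 to -2.28), against 41.5% of high-score and 42.1% of remaining Ig control cells (difference -0.585, -3.02 to 1.87). The median clone size was 9 cells for high-score and 11 for remaining anti-CD137 cells, and 44 and 50 for high-score and remaining Ig control cells.

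By clone size, 23.3% of anti-CD137 cells whose clonotype was seen once were high-score (20.5 to 26.3), and 16.2% of those in clonotypes of 100 or more cells (13.3 to 19.6). In between lay 20.8% for 2 to 4 cells, 19.1% for 5 to 19 and 19.9% for 20 to 99. The Ig control shares lay between 27.9% and 31.3% in all 5 size classes, with overlapping intervals. The 560 anti-CD137 cells of the largest size class belonged to 4 clonotypes.

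High-score cells were spread over many clonotypes. They fell into 451 of 1316 anti-CD137 and 536 of 1124 Ig control Tex clonotypes. Of the clonotypes with at least 2 cells, 53.4% of 479 in anti-CD137 and 68.7% of 492 in Ig control held a high-score cell. When 943 cells were drawn from each class, the expected number of clonotypes was 451 for high-score and 439 for remaining anti-CD137 cells, and 308 for high-score and 307 for remaining Ig control cells. At equal cell numbers, the clonotype counts of high-score and remaining cells were thus close.

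Sharing with Tpex differed by no more than counting error over all paired cells. The clonotype was also found in Tpex of the same treatment for 41.6% of high-score and 45.0% of remaining anti-CD137 cells (difference -3.42, -6.97 to 0.172). In the Ig control library it was found for 78.3% of high-score and 79.0% of remaining cells (difference -0.705, -2.77 to 1.31). With clonotypes by TRB alone the shares were 65.7% and 65.9% in anti-CD137 and 80.7% and 81.6% in Ig control cells, high-score before remaining. The anti-CD137 difference depended on the cells taken. It was -4.20 over matched UMI bins, -4.83 with a score threshold of 0.1 (-8.20 to -1.41), -4.96 in cells with 1 TRB (-8.58 to -1.28) and -7.32 in cells of 5 or more TRB and 3 or more TRA UMIs (-10.9 to -3.57). It was -1.06 without the 10 largest clonotypes (-4.91 to 2.86).

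A clonotype that had a high-score cell in Tpex was more frequent among high-score Tex cells of the Ig control library. It was carried by 43.9% of high-score and 35.9% of remaining cells (difference 8.01, 5.58 to 10.4), or 9.29 points apart over matched UMI bins. The 2 largest clonotypes gave 249 and 242 of these 982 high-score cells. The interval counts cells, which are not independent within a clonotype. Without the 10 largest clonotypes the shares were 22.3% of 1307 high-score and 16.0% of 3207 remaining cells. The difference was 3.29 with a score threshold of 0.1 (0.895 to 5.67) and 4.31 with each clonotype counted once per class (0.850 to 7.97). By construction the latter count favours large clonotypes among high-score cells, so its positive value is no support. It also moved the Ig control differences in expanded clonotypes to 11.3 and in sharing with Tpex to 3.54. In anti-CD137 6.57% of high-score and 6.28% of remaining cells carried such a clonotype (difference 0.295, -1.41 to 2.22). Anti-CD137 Tpex had fewer paired cells, given below, in which such a cell could be found. With clonotypes by TRB alone the shares were 15.5% and 15.3% in anti-CD137 and 45.5% and 38.2% in Ig control cells, high-score before remaining. Whether the treatments differ in the share with such a clonotype was not tested. From the Tpex side, 10.7% of 3814 Ig control Tpex cells with a clonotype found in Tex were high-score, and 8.53% of 6227 whose clonotype was not found there. In anti-CD137 Tpex these shares were 8.61% of 534 and 12.9% of 3937. Sharing with Teff was seen for 9.65% of high-score and 11.5% of remaining anti-CD137 Tex cells (difference -1.88, -3.97 to 0.420). In Ig control it was seen for 13.4% of high-score and 11.5% of remaining Tex cells (difference 1.88, 0.243 to 3.58). The largest Ig control clonotype, found in Teff through 2 cells, gave 249 of these 299 high-score and 513 of these 637 remaining cells.

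**Figure D4:**
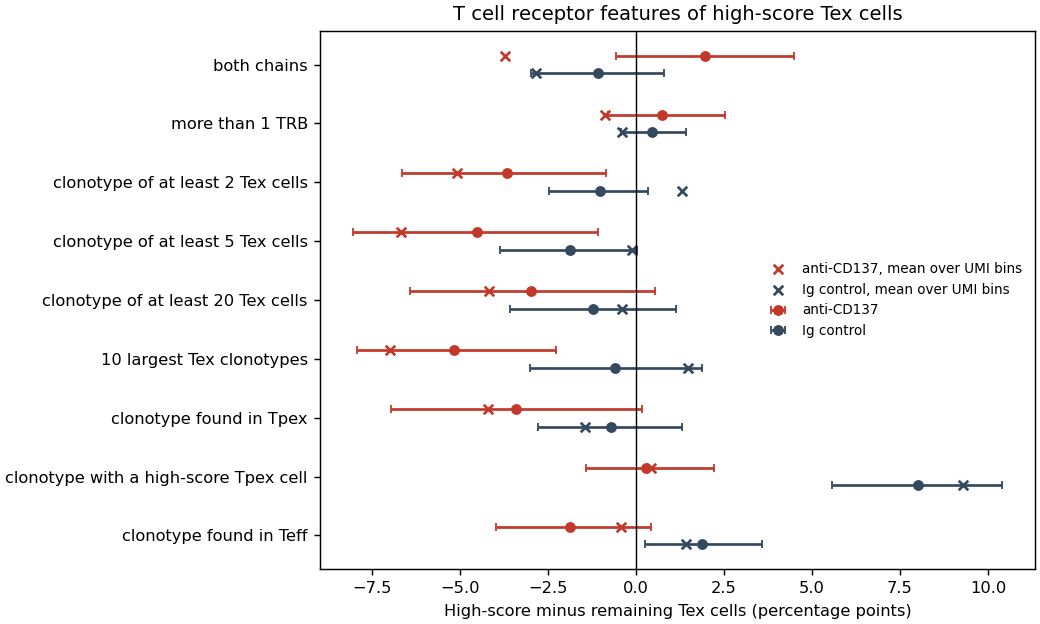
Difference between high-score and remaining Tex cells in 9 TCR measures (x axis, percentage points; right of 0 means more frequent in high-score cells), anti-CD137 in red and Ig control in dark blue. Points have 95% intervals and crosses are means over matched UMI bins. The point farthest right of 0 is the Ig control share with a high-score Tpex cell in the clonotype, 8.01 points, and the anti-CD137 share in the 10 largest clonotypes lies at -5.18.

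Single clonotypes differed in how many of their cells were high-score. Clonotypes of at least 20 paired Tex cells numbered 31 in anti-CD137 and 61 in Ig control. Their high-score shares ran from 6% to 57.5% in anti-CD137 (median 16.7%, all paired cells 20%) and from 0% to 73.0% in Ig control (median 26.8%, all paired cells 28.7%). The interval lay above the library's share for 5 anti-CD137 clonotypes (16.1% of 31) and 8 Ig control clonotypes (13.1% of 61). It lay below it for 5 (16.1%) and 11 (18.0%).

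Below are the TRB CDR3s of the 3 clonotypes with the highest and the 3 with the lowest share in each library. Those of the 2 largest clonotypes of each library are also given. All are shown because they mark the ends of the range of shares and the largest clones. They are written 5′ to 3′ from the conserved cysteine to the phenylalanine codon, with germline V and J bases in lower case and the bases that match neither segment in capitals. Each is named by its TRBV and TRAV segments.
Highest, anti-CD137, TRBV12-1/TRAV12-1: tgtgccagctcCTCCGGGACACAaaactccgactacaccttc
Highest, anti-CD137, TRBV26/TRAV3N-3: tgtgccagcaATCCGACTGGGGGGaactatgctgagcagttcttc
Highest, anti-CD137, TRBV5/TRAV13-4-DV7: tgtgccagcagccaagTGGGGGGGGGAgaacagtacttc
Lowest, anti-CD137, TRBV16/TRAV7D-2: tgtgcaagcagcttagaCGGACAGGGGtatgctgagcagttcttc
Lowest, anti-CD137, TRBV13-1/TRAV3N-3: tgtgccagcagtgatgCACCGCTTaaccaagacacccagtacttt
Lowest, anti-CD137, TRBV13-1/TRAV8N-2: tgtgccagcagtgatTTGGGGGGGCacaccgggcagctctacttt
Largest, anti-CD137, TRBV1/TRAV13-2: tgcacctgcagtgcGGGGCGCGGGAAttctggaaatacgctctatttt
Largest but one, anti-CD137, TRBV29/TRAV6N-7: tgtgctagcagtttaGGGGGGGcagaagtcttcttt
Highest, Ig control, TRBV5/TRAV9N-2: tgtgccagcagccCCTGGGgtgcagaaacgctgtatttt
Highest, Ig control, TRBV29/TRAV9-2: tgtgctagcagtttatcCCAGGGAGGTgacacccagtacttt
Highest, Ig control, TRBV12-2+TRBV13-2/TRAV14-1: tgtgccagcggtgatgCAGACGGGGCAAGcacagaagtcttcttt
Lowest, Ig control, TRBV12-2+TRBV13-2/TRAV7-6: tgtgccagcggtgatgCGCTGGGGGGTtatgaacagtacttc
Lowest, Ig control, TRBV13-1/TRAV4-4-DV10: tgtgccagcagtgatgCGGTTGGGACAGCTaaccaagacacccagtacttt
Lowest, Ig control, TRBV1/TRAV2: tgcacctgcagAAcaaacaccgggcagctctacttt
Largest, Ig control, TRBV2/TRAV6-7-DV9: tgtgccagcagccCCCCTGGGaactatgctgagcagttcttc
Largest but one, Ig control, TRBV5/TRAV12-3: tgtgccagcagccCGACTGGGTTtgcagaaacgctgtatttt

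The germline TRBV segments behind these CDR3s lie in the T cell receptor beta locus of chromosome 6, build GRCm38 (mm10), and each holds a leader exon and a V exon. In the GENCODE M21 annotation TRBV1 spans chr6:40891229-40891885, TRBV2 chr6:41047340-41047995, TRBV5 chr6:41062332-41062803, TRBV12-1 chr6:41113550-41114067, TRBV13-1 chr6:41116007-41116468, TRBV16 chr6:41151740-41152230, TRBV26 chr6:41227505-41227993 and TRBV29 chr6:41271394-41271881, all on the plus strand. The combined name TRBV12-2+TRBV13-2 stands as the authors deposited it and was given no position. The same segment occurred at high and low shares. TRBV29 was used by the anti-CD137 clonotype with a share of 10.9% and by the Ig control clonotype with 65.7%, and TRBV12-2+TRBV13-2 by both an Ig control clonotype at 60% and one at 0%.

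In anti-CD137, TRBV12-1/TRAV12-1 had 23 high-score cells of 40 (57.5%, 40.9 to 73.0), TRBV26/TRAV3N-3 had 13 of 27 (48.1%, 28.7 to 68.1) and TRBV5/TRAV13-4-DV7 had 19 of 50 (38%, 24.7 to 52.8). At the low end, TRBV16/TRAV7D-2 had 3 of 50 (6%, 1.25 to 16.5), TRBV13-1/TRAV3N-3 had 6 of 90 (6.67%, 2.49 to 13.9) and TRBV13-1/TRAV8N-2 had 2 of 29 (6.90%, 0.846 to 22.8). These clonotypes were picked for their shares, so the gap between the ends is a description. The largest clonotype, TRBV1/TRAV13-2, had 25 high-score cells of 213 (11.7%, 7.74 to 16.8), and TRBV29/TRAV6N-7 had 14 of 128 (10.9%, 6.11 to 17.7). Of the other 3 largest, TRBV17/TRAV3N-3 had 17 of 116 (14.7%), TRBV31/TRAV3-3 had 35 of 103 (34.0%, 24.9 to 44.0) and TRBV31/TRAV3N-3 had 15 of 99 (15.2%). TRBV31/TRAV3-3 is the one of these 5 with an interval above the library's 20%.

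In the Ig control library, TRBV5/TRAV9N-2 had 27 high-score cells of 37 (73.0%, 55.9 to 86.2), TRBV29/TRAV9-2 had 23 of 35 (65.7%, 47.8 to 80.9) and TRBV12-2+TRBV13-2/TRAV14-1 had 12 of 20 (60%, 36.1 to 80.9). No high-score cell was found among 43 of TRBV12-2+TRBV13-2/TRAV7-6 (exact interval 0 to 8.22%) or 24 of TRBV13-1/TRAV4-4-DV10 (0 to 14.2%), and TRBV1/TRAV2 had 1 of 20 (5%, 0.127 to 24.9). Of the 5 largest clonotypes, 2 had intervals above and 2 had intervals below the 28.7% of all paired cells. TRBV2/TRAV6-7-DV9 had 249 of 762 (32.7%, 29.4 to 36.1), TRBV5/TRAV12-3 had 242 of 702 (34.5%, 31.0 to 38.1) and TRBV5/TRAV12D-3 had 118 of 379 (31.1%, 26.5 to 36.1). TRBV5/TRAV16N had 107 of 589 (18.2%, 15.1 to 21.5) and TRBV12-2/TRAV9N-3 had 52 of 236 (22%, 16.9 to 27.9), the 2 below. The 2 above were TRBV2/TRAV6-7-DV9 and TRBV5/TRAV12-3.

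Clonotypes with many high-score cells were also deep. Over clonotypes the high-score share and the median UMIs per cell had Pearson's r of 0.797 and Spearman's rho of 0.694 in anti-CD137 (n = 31) and 0.814 and 0.745 in Ig control (n = 61). These points share a library and its depth. Median UMIs were 8415 in TRBV5/TRAV9N-2 and 10468 in TRBV29/TRAV9-2 at the high end of Ig control, and 3652 in TRBV12-2+TRBV13-2/TRAV7-6 at the low end. Against the share expected from each cell's UMI bin, fewer clonotypes stood apart. In anti-CD137, 2 lay above (6.45%) and 3 below (9.68%), and in Ig control 3 lay above (4.92%) and 5 below (8.20%). The 2 above in anti-CD137 were TRBV12-1/TRAV12-1, with an expected share of 35.3%, and TRBV5/TRAV13-4-DV7, with 23.0%. The 3 above in Ig control were TRBV5/TRAV9N-2 (expected 49.0%), TRBV5/TRAV12-3 (28.2%) and TRBV5/TRAV12D-3 (21.0%). TRBV12-2+TRBV13-2/TRAV7-6, with 0 of 43, stayed below its expected 11.9%, as did anti-CD137 TRBV13-1/TRAV3N-3 below its 18.7%. The other named extremes had intervals that held the expected share. These were TRBV26/TRAV3N-3 (30.9%), TRBV29/TRAV9-2 (58.2%) and TRBV12-2+TRBV13-2/TRAV14-1 (49.1%) at the high end. At the low end they were TRBV16/TRAV7D-2 (12.2%), TRBV13-1/TRAV8N-2 (14.1%), TRBV13-1/TRAV4-4-DV10 (10.6%) and TRBV1/TRAV2 (9.58%).

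**Figure D5:**
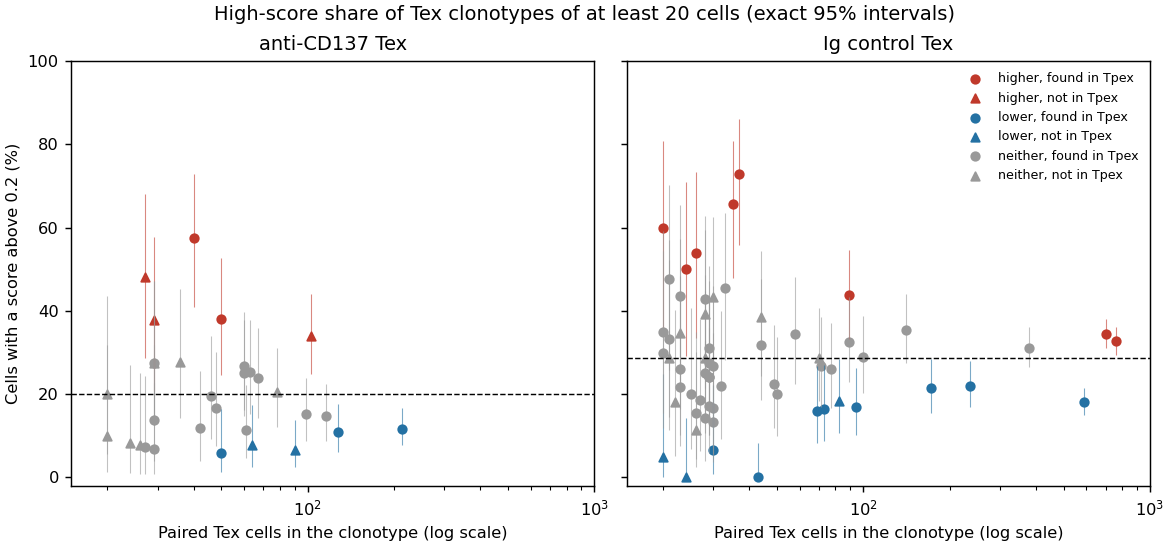
High-score share (y axis, percent, exact 95% intervals) against paired Tex cells (x axis, log scale) for clonotypes of at least 20 cells, anti-CD137 at left and Ig control at right. Colours show intervals above (red) or below (blue) the share of the library's paired cells (dashed line), circles clonotypes also found in Tpex and triangles those not found there. Shares run from 6% to 57.5% in anti-CD137 and from 0% to 73.0% in Ig control.

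The same clonotype was more often high-score in the Tex gate than in the Tpex gate. Clonotypes with at least 10 paired cells in both gates numbered 4 in anti-CD137 and 19 in Ig control. The Tex share was the higher one in 3 of 4 and in 18 of 19, and the interval of the difference lay above 0 in 1 (25%) and in 6 (31.6%). Over all their cells, 16.5% of 158 Tex and 11.8% of 85 Tpex cells were high-score in anti-CD137, and 28.4% of 3067 Tex and 13.6% of 2156 Tpex cells in Ig control. TRBV2/TRAV6-7-DV9, the largest Ig control clonotype, had 32.7% of 762 Tex and 15.5% of 869 Tpex cells high-score (difference 17.1, 12.9 to 21.3). TRBV5/TRAV12-3 had 34.5% of 702 Tex and 13.2% of 797 Tpex cells (difference 21.3, 17 to 25.6), and TRBV5/TRAV12D-3 had 31.1% of 379 and 13.7% of 183 (difference 17.5, 10.0 to 24.2). TRBV5/TRAV9N-2, with the highest Tex share, also had 30% of 20 Tpex cells high-score, the highest share among the Tpex cells of these 19 clonotypes. TRBV12-2+TRBV13-2/TRAV7-6 had 0 high-score cells in both gates, of 43 Tex and 20 Tpex cells. The gates were sequenced as separate libraries of unlike depth, so gate and library cannot be told apart here.

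TRBV use differed little between high-score and remaining cells. Of 20 segments at 1% or more of anti-CD137 paired cells, TRBV31 alone had an interval above that of the remaining cells (1 of 20, 5%), with 9.76% of high-score (7.94 to 11.8) and 6.70% of remaining cells (5.93 to 7.55), and none lay below (0 of 20, 0%). Its clonotype TRBV31/TRAV3-3 gave 35 of the 92 high-score TRBV31 cells, and without it TRBV31 was used by 6.28% of high-score and 4.99% of remaining cells. In Ig control 0 of 19 segments lay above (0%) and 2 lay below (10.5%). They were TRBV12-2, with 4.43% of high-score and 6.06% of remaining cells, and TRBV3, with 2.82% of high-score and 4.28% of remaining cells. With each clonotype counted once per class, no segment's intervals stood apart in either library.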

How the data were processed

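Tex cells of both treatments were compared by score class. Members, clonotype lists and comparisons were chosen with earlier results of these data known. The deposited cell table gives, per the file headers, the count of UMIs and of genes per cell, the percent of UMIs from mitochondrial and ribosomal protein genes, S and G2/M scores, the phase and the cluster of each cell. The cell cycle score values were computed by the authors before deposit. Cell Ranger 3.0.2, Seurat 4.0.0 and the build mm10 stand in the submitters' processing notes. The deposited TCR table gives, per contig, chain, segments, CDR3 and the count of UMIs. Contigs were matched to cells on barcode within a library, the TRA and TRB of highest UMI count were kept for each cell, and cells with the same nucleotide CDR3 in both formed a clonotype.

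High-score cells had an S or G2/M score above 0.2. Means over UMI bins (limits 1000, 1500, 2000, 2500, 3000, 4000, 5000, 7000 and 10000) used bins of at least 20 cells on both sides, weighted by the cells of both. Clonotypes of at least 20 paired cells were examined. In each library those named are the 5 largest and the 3 with the highest and the 3 with the lowest high-score share. Some clonotypes found in both gates and 4 with TRBV31 were named after their values were seen. CDR3s were matched to V and J segments in GENCODE M21 transcripts. With 1 library per group no test was run and no p is given. Differences have Newcombe intervals. No doublet caller was run for want of gene values, the sources used here do not state how doublets were treated, and 1 alternative kept cells with a single TRB. Alternatives varied threshold, score, depth, chains and clone definition. Calculations used Python 3.11.15, numpy 2.4.6, pandas 2.3.3, scipy 1.17.1 and matplotlib 3.10.9, and were tested on simulated data.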

Additional observations from a re-analysis of the deposited data

Results flagged for a closer look

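Several differences had opposite signs under anti-CD137 and Ig control, or in 1 gate and another. None of these contrasts was tested, since each group was 1 library. The high-score share differed, anti-CD137 minus Ig control, by -9.70 points in Tex, 0.576 in Tpex and 1.20 in Teff, before cells were matched on UMIs. Over matched bins these were 3.51 in Tex, 18.7 in Tpex and 1.26 in Teff, all of 1 sign, with 3441 of 13209 anti-CD137 Tpex cells in matched bins. High-score minus remaining Tex cells, the share with any TCR chain differed by 0.0421 points in anti-CD137 and -4.40 in Ig control, and the share with both chains by 1.96 and -1.07. The anti-CD137 interval of the first and both intervals of the other hold 0, and over matched bins the share with both chains differed by -3.72 in anti-CD137 and -2.83 in Ig control. The share in the largest Tex clonotype differed by -2.33 points in anti-CD137 and 1.88 in Ig control, which for anti-CD137 is TRBV1/TRAV13-2 and for Ig control TRBV2/TRAV6-7-DV9. The share with a clonotype found in Teff differed by -1.88 points in anti-CD137 and 1.88 in Ig control. The Ig control value rests mostly on TRBV2/TRAV6-7-DV9, which had 2 Teff cells. It gave 249 of the 299 high-score and 513 of the 637 remaining cells with such a clonotype. Outside the cells compared above, 35.2% of 9112 TCR barcodes of anti-CD137 Tex (34.2 to 36.1) and 3.16% of 8987 of Ig control Tex (2.81 to 3.54) belonged to no cell of the cell table, so they have no score.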

How the results depend on the processing

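Of 146 alternatives, 110 gave a value within the counting interval of the reported one or, for numbers of clonotypes, within 1.5 times of it. Among those, the sign turned for Ig control sharing with Tpex with the S score alone (0.638, reported -0.705) and for anti-CD137 clonotypes with a high-score Tpex cell with the G2/M score alone (-0.801, reported 0.295), where both reported intervals hold 0. The lower high-score share of anti-CD137 Tex cells (-9.70 points) turned to a higher one over matched UMI bins (3.51), bins of 500 UMIs (3.70) and bins of 250 genes (4.11). With matched bins it was also positive for cells of at least 10 percent ribosomal protein UMIs (1.53), cluster 3 (21.0), the S score alone (1.42), the G2/M score alone (2.44), and thresholds of 0.1 (3.82) and 0.3 (1.71). Unbinned it was -19.8 for cells above their library's median UMIs, -7.29 for S alone, -5.22 for G2/M alone, -12.4 with at least 10 percent ribosomal UMIs and -7.90 for paired cells without the 10 largest clonotypes. The anti-CD137 cluster 4 difference (-40.6) was -45.9 above the median UMIs, -36.8 with a threshold of 0.3, -36.8 for S alone, -35.0 for G2/M alone, -36.5 for phases other than G1 and -22.8 over matched bins. In Ig control (-9.15) it was -7.01 with at least 2000 UMIs, -0.858 above the median UMIs, -6.90 for G2/M alone and -3.54 over matched bins. The cause of these moves was not tested.

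With each clonotype counted once per score class, the difference in expanded clonotypes was 15 points in anti-CD137 and 11.3 in Ig control, that in sharing with Tpex 4.76 and 3.54, and that in clonotypes with a high-score Tpex cell 4.31 in Ig control. By construction a large clonotype then counts in full for a class with 1 of its cells. Over matched bins the Ig control difference in expanded clonotypes was 1.31. In cells of 5 or more TRB and 3 or more TRA UMIs the anti-CD137 difference in sharing with Tpex was -7.32. With a threshold of 0.1 the Ig control difference in clonotypes with a high-score Tpex cell was 3.29. Clonotypes apart from their library numbered 10 of 31 in anti-CD137, and 5 of 31 against the share expected from UMI bins. In Ig control they numbered 19 of 61, and 10 of the 19 clonotypes of at least 50 cells, 9 of 61 with 99% intervals and 8 of 61 against the UMI bins.

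Combined matched-bin settings, finer and gene bins, the ribosomal limit, paired and unshared cells, and the alternatives for high-score Tpex cells were chosen after seeing the data. No paired analysis was possible because each treatment and subset had 1 library, so leaving out libraries in turn did not apply.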

Other observations

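In anti-CD137 Tex, 4 of the 31 clonotypes of at least 20 cells combined TRBV31 with a TRAV3 family segment and TRAJ31, and each had a TRA CDR3 of 42 bases. They were singled out after their values were seen. High-score cells made up 34.0% of 103 cells (24.9 to 44.0) and 37.9% of 29 cells (20.7 to 57.7) in the 2 that used TRAV3-3, and 15.2% of 99 cells (8.74 to 23.8) and 8.33% of 24 cells (1.03 to 27.0) in the 2 that used TRAV3N-3. Expected from their UMI bins were 25.6% and 23.8% for those with TRAV3-3, and 18.0% and 15.1% for those with TRAV3N-3, and all 4 intervals held the expected share. Of the 4, the TRAV3N-3 clonotype of 99 Tex cells alone had Tpex cells, 2 in number. TRBV31 spans chr6:41557691-41558452 on the minus strand, TRAV3-3 chr14:53665929-53666506 and TRAV3N-3 chr14:53283585-53284175 on the plus strand, in GRCm38. Their TRB CDR3s are shown, with capitals as above, because the segments are shared while the junctions differ.
TRAV3-3, 103 cells: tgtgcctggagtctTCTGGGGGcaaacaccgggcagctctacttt
TRAV3-3, 29 cells: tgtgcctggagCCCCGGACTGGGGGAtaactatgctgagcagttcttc
TRAV3N-3, 99 cells: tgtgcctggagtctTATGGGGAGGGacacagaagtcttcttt
TRAV3N-3, 24 cells: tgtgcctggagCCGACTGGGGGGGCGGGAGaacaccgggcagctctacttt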
